A study of Arabidopsis thaliana with 18 samples.

Results

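The step from 20 h to 0 h of a diurnal course was examined in rosettes of Arabidopsis thaliana, by comparing the 3 arrays titled 0 h with the 3 titled 20 h out of 18 arrays in the series. Both groups were untreated wild-type Col-0 plants of 5 to 6 weeks, and the material of 15 whole rosettes was ground together for each sample. The course has 6 labelled times. Its 3 replicate courses, lettered A, B and C, were raised apart according to the design text, so that each letter gives 1 pair of arrays for this comparison. The course starts at 0 h, and setting 0 h after 20 h treats it as a closed cycle of 24 h, which the sampling itself did not observe. The labels do not say when the light was on, so the working name of this comparison as a late night step could not be checked, and times are used only as labelled.

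A leaf builds starch in the light and breaks it down in the dark, and its transcripts follow both this daily change in sugar and an internal circadian clock. In Arabidopsis the clock raises different sets of genes at dawn and at dusk. Among the genes it times are the cycling DOF factors (CDF), which hold back the flowering regulator CONSTANS in the morning, and many cold-regulated COR genes.

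Signals are the deposited intensities on a linear scale. Differences are those of log2 signals, 0 h minus 20 h, with the standard error (SE) of a limma fit to all 18 arrays with replicate letter as a block. A probe set is called where its p, adjusted by Benjamini-Hochberg over 22746 probe sets, is below 0.05. Since the samples are whole rosettes, fewer cells of a type and less RNA per cell cannot be told apart. Of the probe sets tested, 13513 had 1 gene, 503 had several and 8730 are unnamed here.

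The median signal of the 6 arrays lay between 32.6 and 39. In series C the bacterial spike-in bioC was at 457.8 (0 h) and 416.48 (20 h), against 108.22 to 123.35 in series A and B, and the ubiquitin 3'/5' signal ratio was 3.82 and 4.335 against 1.861 to 2.127. Each letter holds both times, so these offsets were not aligned with the comparison. The 5 measured leaf mesophyll markers had signals between 2489.9 and 7780.1, while of the root markers PYK10 reached 244.6 and EXPA7 lay between 1.7 and 18. The 3 arrays of 0 h were each most like the 0 h arrays of the other letters. The array labelled 20 h A correlated with the other letters by 0.965 at 0 h and 0.964 at 20 h, so it was no closer to its own time. Those of 20 h B (0.958 and 0.96) and 20 h C (0.951 and 0.957) were closer to 20 h. Over the series, 10 of the 18 arrays correlated best, on average, with another time than their own among the other letters. Those of 4 h B and 16 h B did so with 16 h and 4 h, 12 h away. Those of 8 h B and 12 h B did so with 12 h and 8 h. Such likeness was not confined to series B. In series A, 4 h went with 16 h, 12 h with 8 h, 16 h with 20 h and 20 h with 0 h. In series C, 8 h went with 12 h and 16 h with 20 h. The 4 arrays of series B bear on the comparison only through the estimate of the spread and of the series offsets.

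Between 20 h and 0 h, 96 probe sets were called, 34 higher and 62 lower at 0 h, which is 0.422% of those tested (0.149% higher and 0.273% lower). With the same array medians for all arrays the split was 50 higher and 45 lower, and with a larger offset before the logarithm it was 44 and 52. The median difference of all probe sets was -0.04, against 1.08 for the probe sets called higher and -1.15 for those called lower. Every call had the same direction in the 3 letter pairs, while 14.8% of all probe sets were higher and 20.3% lower at 0 h in all 3. A call in a fit with the letter as a block favours such agreement, so it is no separate support. For 33 of the 34 called higher all 0 h arrays lay above all 20 h arrays (5.68% of all probe sets), and for 59 of the 62 called lower all lay below (7.97%). Of the calls, 47 have 1 gene, 14 higher and 33 lower.

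**Figure D1:**
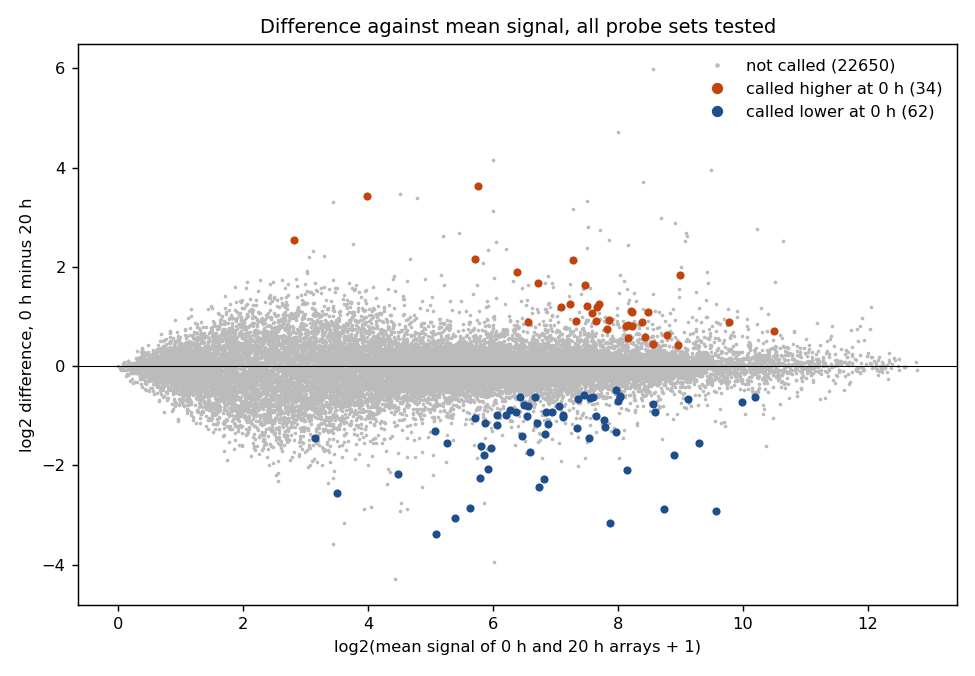
Log2 difference of 0 h minus 20 h (y axis) against the log2 mean signal of both times (x axis) for all 22746 probe sets, with the 34 called higher in red and the 62 called lower in blue. Grey points with large differences at high signal are probe sets whose spread over all 18 arrays was too wide for a call.

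How many probe sets were called depended on which arrays entered. The count was 45 without the replicate block, 515 (2.26%) without 4 h B and 16 h B, called the pair-reduced fit below, 1123 (4.94%) without these and 8 h B and 12 h B, and 625 (2.75%) from the 6 arrays of 0 h and 20 h alone. The pair-reduced fit was set up because of the likeness of its left-out arrays to another time, although arrays of series A and C showed such likeness too. Without series A it was 2, without series B 478 and without series C 0 (limma, 1151 probe sets at an unadjusted p below 0.05). Leaving out single arrays gave 14 without 0 h B, 24 without 0 h C, 16 without 20 h B and 7 without 20 h C. Without 0 h A or 20 h A it was 73 or 66. All 96 differences kept their direction in each of these settings. All 96 calls were also made in both fits without series B arrays of other times. Each call had 1 direction in all 3 letter pairs, so leaving out a series could not reverse it. Without the block, from the 6 arrays alone and without series B arrays of other times, the differences were the same by construction. In these settings the kept direction tests nothing. Of the 24 genes described next, 17 were called without the block, 1 without series A, 21 without series B and 0 without series C.

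**Figure D2:**
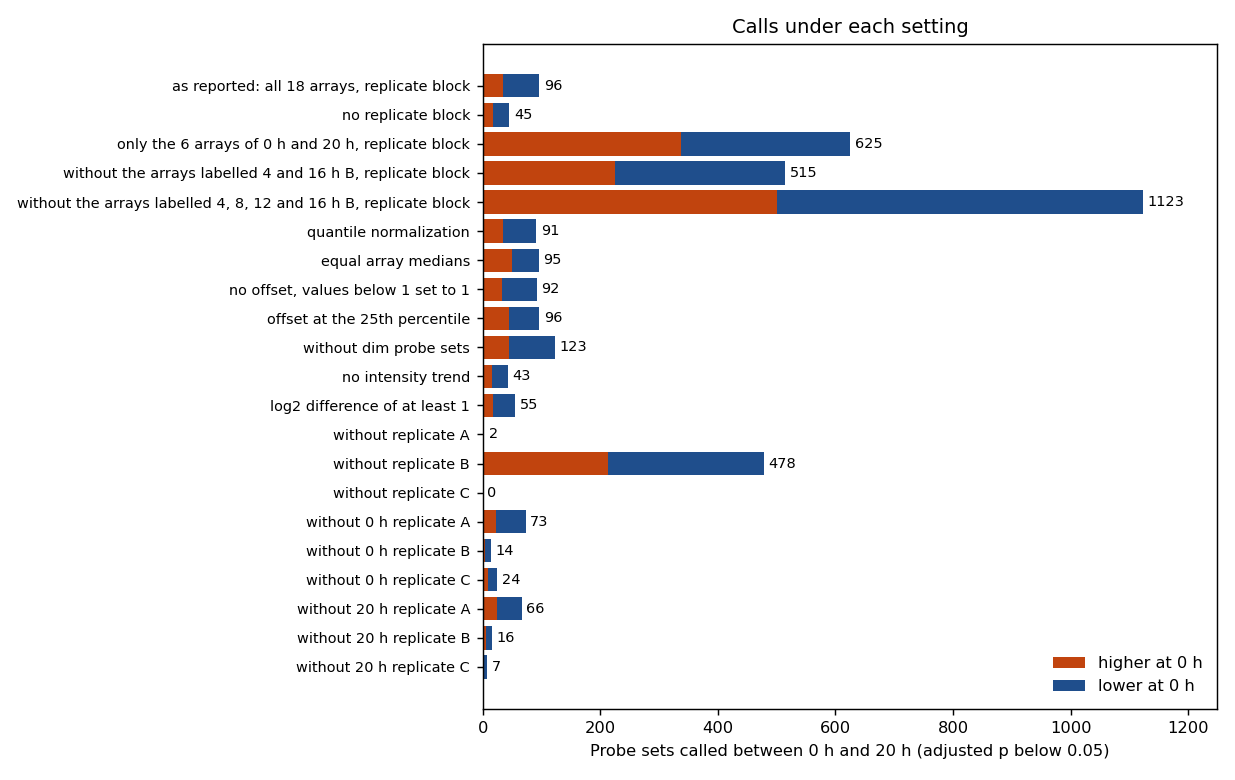
Number of probe sets called between 0 h and 20 h (x axis) under each setting, as bars split into higher (red) and lower (blue) at 0 h. The count was 96 as reported, 1123 without 4 arrays of series B at other times and 0 without series C.

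The gene with the largest called increase was AT1G69570, which encodes CDF5, a DOF transcription factor of the cycling group. At 0 h its signal was 89.7, 99.5 and 105.9 in the order A, B, C used throughout, and 5.1, 12.9 and 4.8 at 20 h. The 0 h arrays lay far above those of 20 h, a log2 difference of 3.63 ± 0.58 (limma adjusted p = 0.0128). With the larger offset the difference was 2.88, since the 20 h signals are dim. A second DOF factor gene, AT1G26790 (CDF6), had signals of 141.2, 134.6 and 80 at 0 h and 13.4, 5.5 and 1.8 at 20 h. Its groups did not overlap either, yet the difference of 4.15 ± 0.90 missed the threshold (limma adjusted p = 0.0713, and 0.0376 in the pair-reduced fit). The third measured member of the photoperiod list, AT2G34140 (CDF4), had 13.7, 5.1 and 6.5 at 0 h and 5.9, 15 and 5.5 at 20 h. Its groups overlapped (-0.03 ± 0.54). Of these 3 measured genes of 8 listed, 1 was called higher and 0 lower. Of all probe sets 0.149% were called higher and 0.273% lower, and 2.26% were called in the pair-reduced fit.

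SWEET2, a sugar transporter of the vacuole membrane, had signals of 293.8, 343.3 and 587.8 at 0 h and 188.2, 145.8 and 210.9 at 20 h. All 0 h arrays lay above all 20 h arrays, by 1.11 ± 0.14 (limma adjusted p = 0.00437), and series C was highest at both times. AT5G65380, of the MATE family of efflux carriers, had 253.5, 288.1 and 333.2 against 132.2, 109.7 and 120.1, a difference of 1.26 ± 0.21 (adjusted p = 0.019). AT4G15430, of the ERD family of membrane proteins that includes osmosensing calcium channels, had 310.9, 308 and 228.7 against 149.4, 126.2 and 94.4. This difference of 1.2 ± 0.23 (adjusted p = 0.0377) ran on from the step before, since the signal was 30.7, 35.8 and 29.7 at 16 h and the rise from 16 h to 20 h was 1.89 (adjusted p = 0.00644).

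The other named increases were of mixed or unstated function. AT4G29950, with the domain of proteins that switch off Rab GTPases in vesicle traffic, had 238.9, 262.6 and 257.1 at 0 h and 126.4, 109.5 and 91.8 at 20 h. With 1.21 ± 0.15 it had the lowest adjusted p of the named increases (limma, 0.0037). AT3G10720, of the pectin methylesterase family that modifies cell walls, had 227, 177.8 and 227.4 against 92.5, 85.1 and 83.2 (1.26 ± 0.21, adjusted p = 0.0162). AT1G66180, of the aspartyl protease family, had 219.8, 191.9 and 150.1 against 122.6, 68.5 and 61.1 (1.2 ± 0.21, adjusted p = 0.0207). Neither of the latter genes overlapped between the times. AT1G23030, which encodes a U-box ubiquitin ligase, differed by 1.07 ± 0.20 (adjusted p = 0.0355), and AT3G13062, of a lipid-binding family, by 0.90 ± 0.14 (adjusted p = 0.0105). AT1G54740 (1.69 ± 0.28), AT5G13100 (1.09 ± 0.19) and AT1G21050 (0.91 ± 0.13) complete the 12. In all 12 every 0 h array lay above every 20 h array, as in 5.68% of all probe sets. The 12 were chosen for large differences that go one way in all letter pairs, which favours this. The remaining increases with 1 gene were AT1G10740 (0.83 ± 0.15) and AT3G06750 (0.45 ± 0.08).

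**Figure D3:**
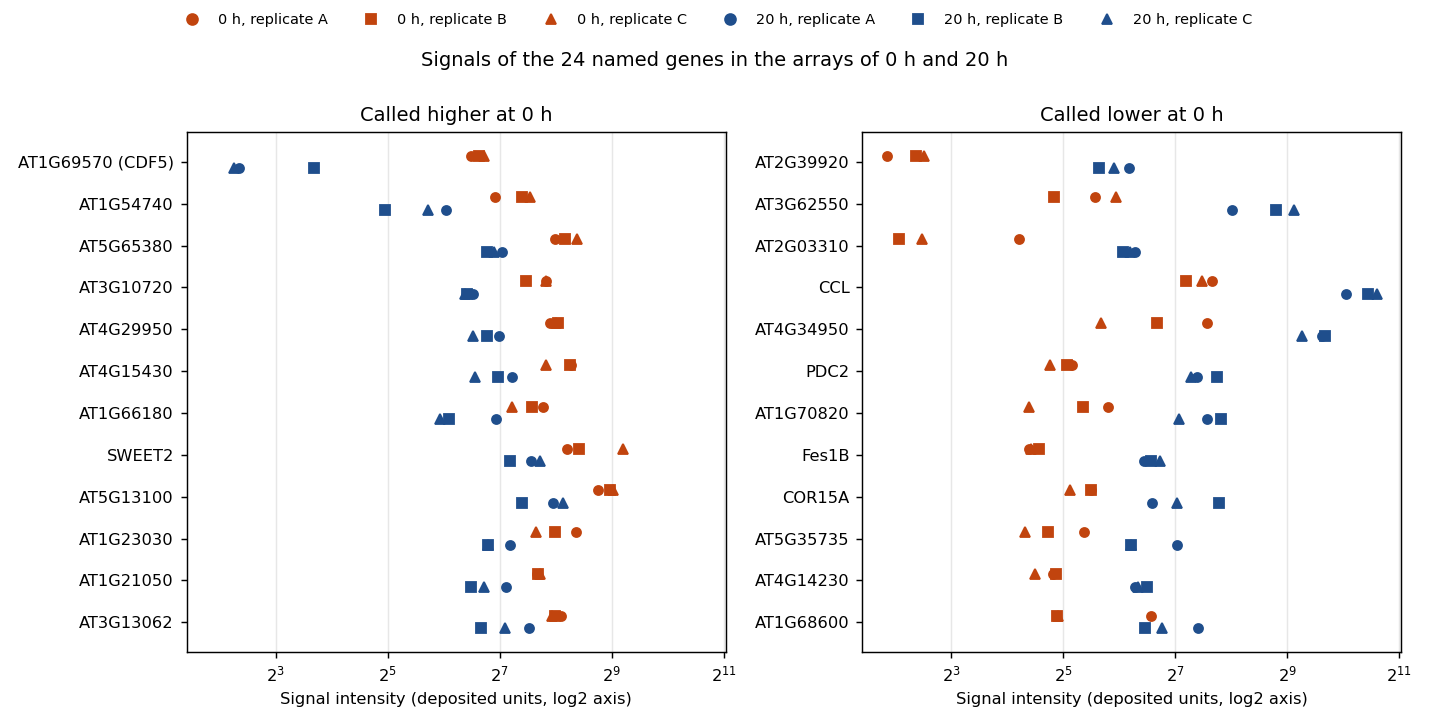
Signal intensity (x axis, log2 scale) of the 24 named genes in each array of 0 h (red) and 20 h (blue), with circles, squares and triangles for replicates A, B and C. The times do not overlap for 23 genes, and for AT1G68600 the 0 h A array at 94.6 lies above the 20 h B array at 88.6. Of all probe sets 5.68% lay wholly higher and 7.97% wholly lower at 0 h.

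Among all calls, 13 probe sets were lower and 5 higher by at least 2 on the log2 scale. CCL, a gene best known for a transcript whose stability is under clock control, had signals of 201.4, 146.4 and 179.2 at 0 h and 1061, 1399.2 and 1555.4 at 20 h. The log2 difference was -2.92 ± 0.45 (limma adjusted p = 0.0105), with no overlap. AT3G62550, of the universal stress protein family, had 47.6, 28.7 and 61.9 against 260.4, 446.1 and 558.2 (-3.16 ± 0.58, adjusted p = 0.028). AT4G34950, a transporter of the major facilitator superfamily, had 189.2, 102.1 and 51 against 786.9, 823 and 618.7. The difference was -2.87 ± 0.33 (adjusted p = 0.00228), and in log2 terms its 0 h arrays differed among themselves more than its 20 h arrays did.

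PDC2, a pyruvate decarboxylase of ethanolic fermentation, had signals of 35.7, 33.4 and 27.3 at 0 h and 168.3, 214 and 156.3 at 20 h (-2.44 ± 0.43, limma adjusted p = 0.0207). AT1G70820, of the phosphoglucomutase family, had 56.1, 40.8 and 21 against 190.5, 225.6 and 134.6 (-2.27 ± 0.33, adjusted p = 0.00981). AT2G39920, of an acid phosphatase family, had 3.6, 5.2 and 5.7 against 72.7, 50.2 and 60.2. At -3.39 ± 0.45 it was the largest called decrease in the fit to all arrays (adjusted p = 0.00464), with 0 h signals so dim that the log2 value depends on the offset, and it was -2.50 with the larger offset, where AT3G62550 (-3.00), CCL (-2.87) and AT4G34950 (-2.79) fell further. AT1G68600, of the family of aluminium-activated malate transporters, had 94.6, 29.8 and 30 against 170.9, 88.6 and 109.2. Its times overlapped in signal although each letter pair fell (-1.40 ± 0.28, adjusted p = 0.047). It was called in 5 of the 11 settings that kept all arrays of 0 h and 20 h. These were the 6 arrays alone, both fits without series B arrays of other times, no dim probe sets, and the minimum difference. The last of these repeats the fit to all arrays.

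Among the other named decreases, COR15A, the cold-regulated protein of the chloroplast stroma, had 45, 45.5 and 34.7 at 0 h and 96.8, 219.2 and 130.4 at 20 h (-1.73 ± 0.29, limma adjusted p = 0.0162). It was already falling in the step before, from 1025.7, 874.5 and 468.7 at 16 h (-2.41, adjusted p = 0.00644). Fes1B, which exchanges nucleotides on the chaperone Hsp70, had 20.9, 23.9 and 21.4 against 87.3, 95.5 and 106.7 (-2.07 ± 0.35). AT4G14230, of a family with a CBS domain, had 28.3, 29.4 and 22.5 against 77.9, 91 and 81.4 (-1.61 ± 0.19, adjusted p = 0.00228). The arrays of both genes lay close together within each time. AT5G35735, of a family of auxin-responsive membrane proteins with a cytochrome b561 domain, differed by -1.64 ± 0.24 (adjusted p = 0.00981), and AT2G03310 by -3.06 ± 0.33 (adjusted p = 0.00189). AT2G03310 was dim at 0 h (18.5, 4.2 and 5.6), and its difference was -2.37 with the larger offset.

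The other 21 decreases with 1 gene lay between -1.46 and -0.48. Among them AT2G43550, a member of the defensin-like proteins, had 171.9, 121.5 and 136.5 at 0 h and 341.9, 358.5 and 372.3 at 20 h (-1.33 ± 0.17, limma adjusted p = 0.00437). CHI (AT2G43570), which is a chitinase and not chalcone isomerase, had 20.5, 10.4 and 23.8 against 58.4, 26.2 and 55.6 (-1.30 ± 0.21). PIFI, a chloroplast protein of electron transport around photosystem I, had 859.7, 705.1 and 724.8 against 1238.5, 1248 and 1288.8 (-0.73 ± 0.13). These genes did not overlap between the times. SERPIN1, a protease inhibitor, differed by -0.65 ± 0.11, ETFBETA, the mitochondrial electron transfer flavoprotein subunit used in amino acid breakdown, by -0.63 ± 0.12, and AAE15, an acyl-activating enzyme, by -0.58 ± 0.11. Y14, a core protein of the exon junction complex, had the smallest called decrease (-0.48 ± 0.10, adjusted p = 0.0468).

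Several genes moved further than most of the called ones but were not called. By a rule set after their values were seen, these are the probe sets with 1 gene, a difference of at least 2 in either direction that holds in each letter pair, and a signal at the brighter time that reaches the median probe set. There were 7 higher and 4 lower at 0 h, and none of the 11 overlapped between the times. Of all probe sets 5.68% lay wholly higher and 7.97% wholly lower at 0 h. The rule itself favours genes without overlap, so this count is a description only. AT1G55960, of the same lipid-binding family as AT3G13062, had signals of 1062.9, 1387.2 and 1591.5 at 0 h and 129.3, 69.2 and 68.7 at 20 h. It differed by 3.95 ± 0.82 (limma adjusted p = 0.0569). AT2G41250, of the haloacid dehalogenase family of hydrolases, had 871.1, 942.3 and 997.2 against 234.2, 112.6 and 116.3 (2.68 ± 0.64, adjusted p = 0.106). At 8 h their means were 64.4 and 22.4.

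The 4 decreases in this set were AT2G23910 (-4.29 ± 1.38), AT1G07050 (-2.87 ± 1.12), AT4G16146 (-2.75 ± 0.70) and AT5G62360 (-2.19 ± 0.90). AT2G23910 had 1, 0.6 and 1.2 at 0 h and 25.3, 44.1 and 50.8 at 20 h. Its 0 h signals were near the offset of 1.1, so the size of its log2 difference depends on the offset. AT4G16146, related to the small cAMP-regulated phosphoproteins, had 14.4, 14.3 and 12.1 at 0 h and 65.6, 124.9 and 112.3 at 20 h. AT1G07050, a protein with the CCT motif known from CONSTANS and clock proteins, had 9, 7.2 and 0.9 against 25.5, 40.5 and 58.5. The other increases were AT1G26790, AT1G70985 (2.62 ± 1.08), AT1G66760 (2.50 ± 0.68), AT2G20670 (2.38 ± 0.93) and AT3G55580 (2.16 ± 0.54). In the pair-reduced fit 9 of the 11 were called, AT1G55960 among them (limma adjusted p = 3.9e-06), and all 11 were without the 4 arrays of series B at other times. No value at 0 h or 20 h differs between these fits, only the spread and the number of arrays behind it. The set was chosen for its size of difference, so these counts support nothing about it.

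Over the whole course, the called probe sets were at an extreme at 0 h. All 34 called higher had their highest mean log2 signal of the 6 times at 0 h, and their lowest at 12 h (19), 8 h (11), 20 h (3) or 16 h (1). Of the 62 called lower, 61 had their lowest mean at 0 h, AT2G29320 being the exception, and their highest at 8 h (40), 12 h (16), 20 h (3), 4 h (2) or 16 h (1). Among all 22746 probe sets 4426 had their highest and 6931 their lowest mean at 0 h. Since the call itself needs 0 h to differ from 20 h, these counts are a description with no test. CDF5 went from 89.7 to 105.9 at 0 h down to a mean of 28.4 at 4 h, 14.6 at 8 h and 8.23 at 12 h, and stood at 15.3 at 16 h. CCL rose from 0 h to means of 1162 at 4 h, 3129 at 8 h and 3087 at 12 h and stood at 1798 at 16 h. SWEET2 had means of 127.1, 43.3, 46.5 and 109.5 at 4, 8, 12 and 16 h, below each of its 0 h signals.

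**Figure D4:**
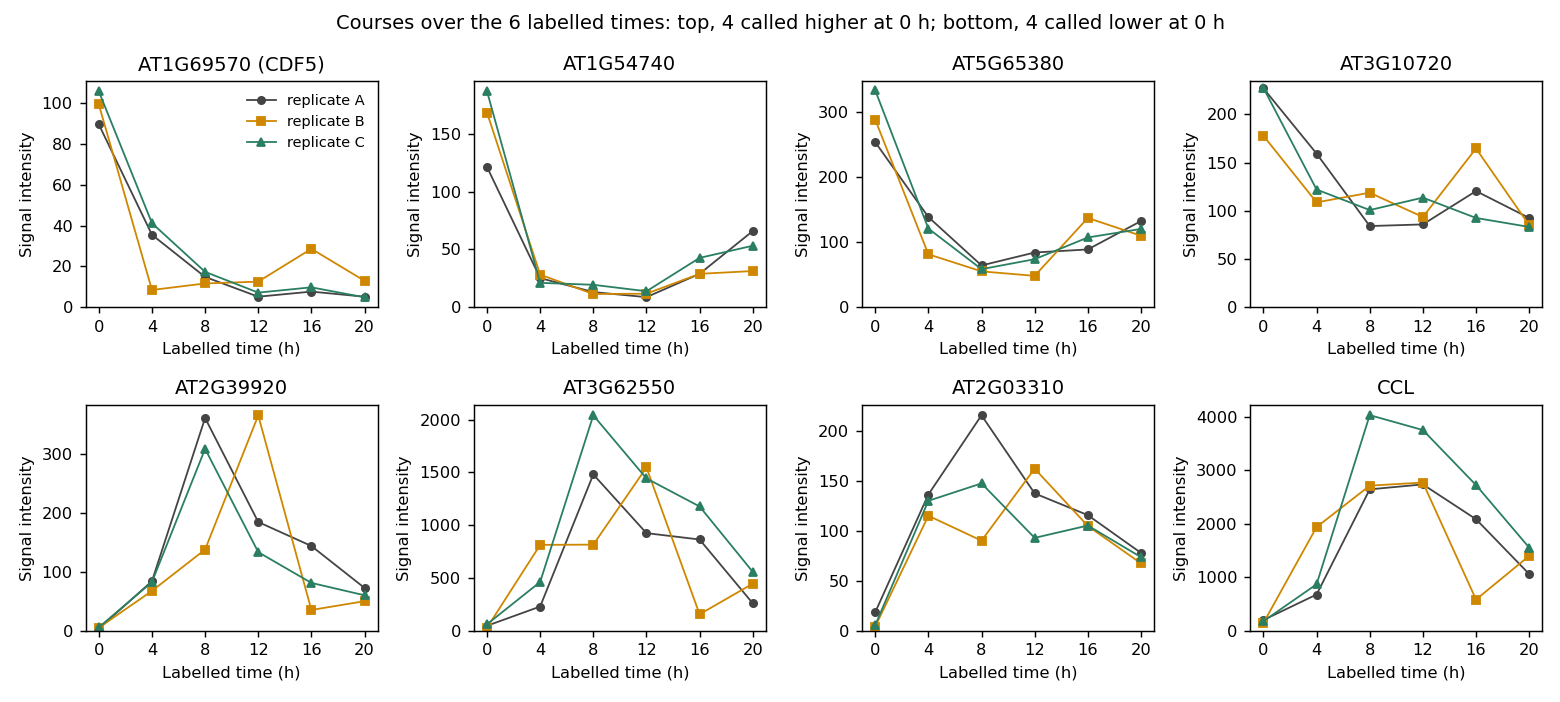
Signal intensity (y axis) over the 6 labelled times (x axis) for the 4 largest named increases (top) and decreases (bottom), 1 line for each replicate letter. All letters meet at high or low signals at 0 h, while series B runs apart from A and C at 4, 8, 12 or 16 h in several genes, as for CCL at 16 h with 584.1 in B, 2085.8 in A and 2723.5 in C.

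The step before, from 16 h to 20 h, gave 8 calls in the same fit (0.0352% of probe sets), 5 higher and 3 lower at 20 h. The array labelled 16 h B enters this step directly. In the pair-reduced fit the count was 101 (0.444%), without the 4 arrays of series B at other times 316, without series B 266, and without series A or series C 0. It was 4 without the block and 3 to 4 without a single 20 h array. The step shares the 20 h arrays with the step examined here. Whether the changes of both steps differ was tested directly for each probe set, as 0 h minus 20 h against 20 h minus 16 h, and 0 were called (limma, smallest adjusted p = 0.673, 1041 at an unadjusted p below 0.05). No gene was therefore shown to change by another amount over the last step than over the step before. In the pair-reduced fit the number was 1, and without the 4 arrays of series B it was 24. Among the 12 named decreases, the change from 16 h to 20 h lay between -2.41 for COR15A and 0.26 for PDC2, with 9 below 0. In the pair-reduced fit 11 were below 0, since PDC2 (-0.37) and AT4G34950 (-0.35, from 0.07) turned, and AT1G68600 (0.16) was the one above. Among the 12 named increases it lay between -0.82 for CDF5 and 1.89 for AT4G15430, with 9 above 0, as in the pair-reduced fit, where the range was -0.42 to 2.02.

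Lists of genes for the clock, carbon metabolism, light and stress held 253 genes, of which 46 have a named probe set, and 1 of these was called higher (CDF5) and 1 lower (COR15A). This can be read against 0.422% of all probe sets. Of the cold and dehydration list 5 of 13 genes were measured, 1 called lower and 0 higher, with a median difference of -1.24. COR15B, the close relative of COR15A, had 24.4, 42.7 and 41.5 at 0 h and 61, 101.6 and 97.8 at 20 h (-1.24 ± 0.30, limma adjusted p = 0.107). AT4G33980 (COR28), a cold- and clock-linked gene, was near the floor at 0 h with 0.4, 0.4 and 0.9, against 13.5, 22.7 and 21.1 at 20 h (-3.58 ± 1.21, adjusted p = 0.282). COR27 (-0.56 ± 1.35) and the dehydrin COR47 (-0.35 ± 0.34) lay lower as well. COR15B, COR27 and AT4G33980 did not overlap between the times, while 7.97% of all probe sets lay wholly lower at 0 h. The difference of COR27 was smaller than its SE. COR15B and AT4G33980 were called beside COR15A in the pair-reduced fit (limma adjusted p = 0.00966 and 0.00119), where 2.26% of all probe sets were called.

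None of the measured genes of starch metabolism was called. DPE1, the plastid disproportionating enzyme of starch breakdown, had 84.7, 94.5 and 106.8 at 0 h and 148.3, 192.6 and 187 at 20 h (-0.87 ± 0.28, limma adjusted p = 0.257). PWD, phosphoglucan water dikinase, which phosphorylates starch for breakdown, had 224.4, 207.8 and 195.7 against 324.4, 514.8 and 378.6 (-0.93 ± 0.48, adjusted p = 0.553). Neither gene overlapped between the times, while 7.97% of all probe sets lay wholly lower at 0 h. In the pair-reduced fit both were called (limma adjusted p = 0.000884 and 0.00354), where 2.26% of all probe sets were called. These are 2 of 19 listed genes. On the side of synthesis, 3 of 16 were measured, and APL4 (-0.88 ± 0.30), APL3 (-0.59 ± 0.38) and SBE2.2 (-0.13 ± 0.15) gave 0 calls in these fits. APL3 and APL4 are large subunits of ADP-glucose pyrophosphorylase and SBE2.2 a branching enzyme.

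Genes known to rise when sugar is short had differences above 0 but gave 0 calls among 4 measured of 20 listed. AKINBETA1, a subunit of the energy-sensing kinase SnRK1, had 321, 297.8 and 400.4 at 0 h and 256.5, 154.4 and 188.4 at 20 h (0.78 ± 0.29, limma adjusted p = 0.346). MCCA, of leucine breakdown, had 107.4, 110.1 and 149.9 against 83.4, 78.5 and 92.7 (0.51 ± 0.17, adjusted p = 0.293). The times did not overlap for either gene, while ATG8E (0.23 ± 0.40) of autophagy and MCCB (0.08 ± 0.14) did. Of all probe sets 5.68% lay wholly higher at 0 h. The list's median difference was 0.37 against -0.04 for all probe sets. For sucrose synthesis and export, 3 of 13 were measured and 0 called, with SPS4F, a sucrose phosphate synthase, at -0.70 ± 0.40 and the exporter SWEET11 at -0.04 ± 0.29.

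In chlorophyll synthesis, PORB, the light-dependent protochlorophyllide oxidoreductase, had 771.9, 616.7 and 572.9 at 0 h and 1630.1, 2316.1 and 2041.1 at 20 h. It differed by -1.61 ± 0.34 without reaching the threshold (limma adjusted p = 0.0672, and 0.0328 in the pair-reduced fit). In the pair-reduced fit 2.26% of all probe sets were called. CHLM (0.31 ± 0.15) and GSA1 (-0.03 ± 0.10), of the same pathway, gave no call, so the list stood at 0 of 3 measured and 15 listed. HYH, a bZIP factor of light signalling and the sole measured gene of 22 in its list, had 262.6, 271.8 and 365.6 against 207.2, 130.3 and 155.5 (0.87 ± 0.40, adjusted p = 0.484). DFR, of anthocyanin synthesis and alone of 13, had 125.5, 96.1 and 88.4 against 200.2, 184.1 and 262.8 (-1.05 ± 0.37, adjusted p = 0.311). Both were called only in some alternatives, HYH with adjusted p = 0.0104 and DFR with 0.00747 without the 4 arrays of series B at other times. In that fit 4.94% of all probe sets were called.

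Clock genes with a named probe set were few, 2 of 16 in the morning list and 1 of 12 in the evening list, with 0 calls. RVE5 (AT4G01280) and RVE6 (AT5G52660), of the REVEILLE family of MYB-like factors, differed by 0.25 ± 0.17 and 0.24 ± 0.21. GI, which acts in the clock and in flowering time, was dim at both times with 1.7, 8.7 and 9 at 0 h and 13.5, 6 and 17 at 20 h (-0.92 ± 0.98, limma adjusted p = 0.821). RCA (0.05 ± 0.16), PRK (-0.08 ± 0.12) and SBPASE (-0.08 ± 0.11) of the Calvin-Benson cycle gave 0 calls among 3 of 21, and HPR1 (listed as HPR), GLDT and GLYK of photorespiration 0 among 3 of 11. The iron list had 3 of 13 measured and 0 called. Its member AT1G47400 had 46.4, 65.4 and 82 against 97.5, 136.5 and 179.9 without overlap (-1.08 ± 0.86, adjusted p = 0.731). Of all probe sets 7.97% lay wholly lower at 0 h. The counts of 0 calls in these small lists can be read against 0.422% of all probe sets called. The reference genes UBC21 (listed as PEX4), TIP41 and SAND, 3 of 10, differed by 0.02 ± 0.14, -0.04 ± 0.16 and -0.17 ± 0.11. The defence gene PDF1.2 (0.62 ± 0.32), the stress factor ZAT10 (listed as STZ, -0.18 ± 0.57) and the root markers PYK10 (0.28 ± 0.20) and EXPA7 (-0.16 ± 0.57) gave 0 calls.

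**Figure D5:**
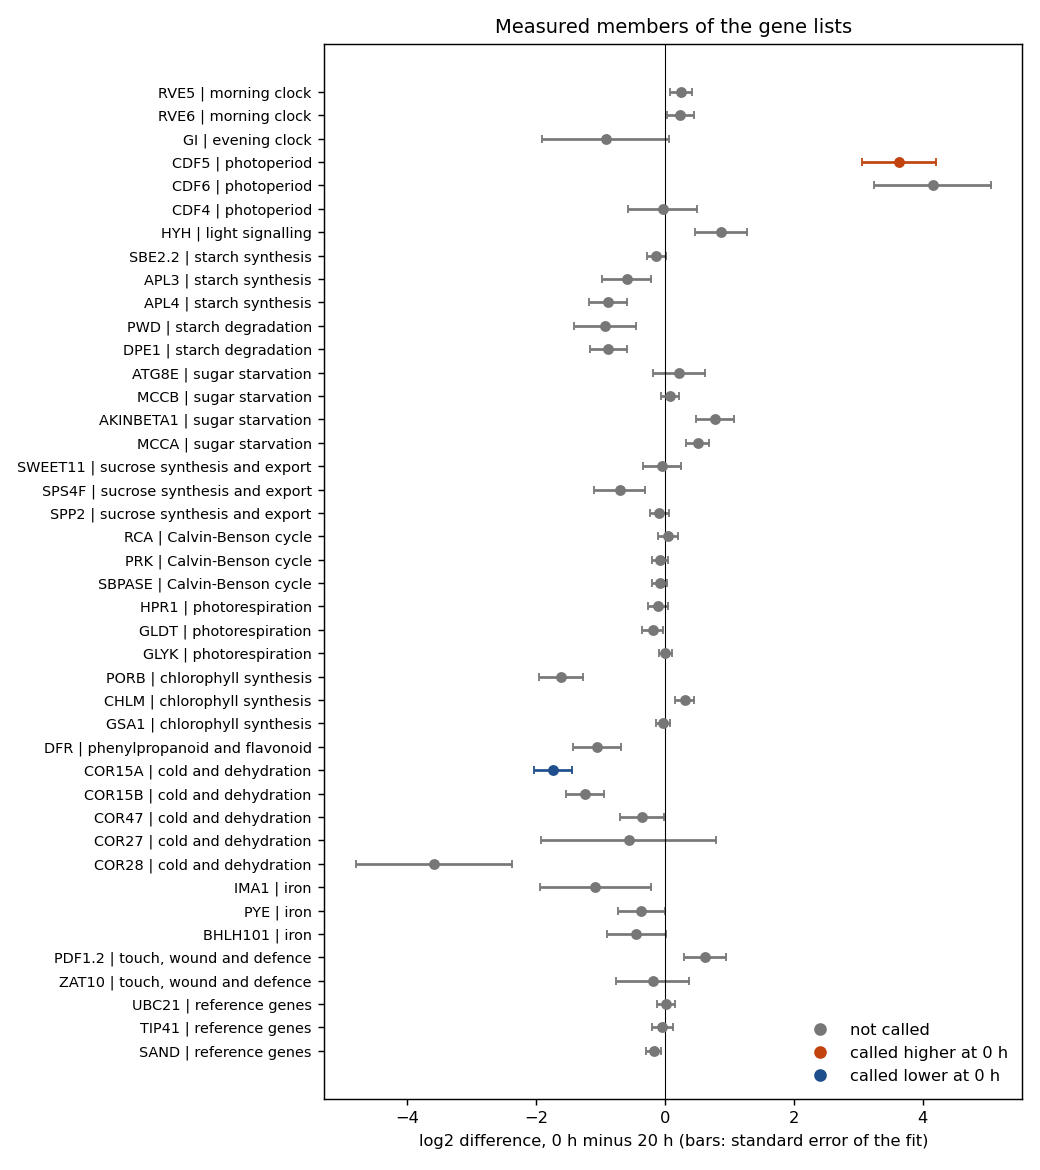
Log2 difference of 0 h minus 20 h (x axis) with its SE for each measured gene of the lists, ordered by list. CDF5 at 3.63 was called higher and COR15A at -1.73 lower, and several uncalled members such as AT4G33980 (COR28) at -3.58 carry wide errors.

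The plastid's own genes lay mostly on the higher side at 0 h without a call. Taken by their place on the plastid chromosome in the RefSeq table, 69 genes were measured, 57 with a difference above 0 (44.1% of all probe sets) and a median of 0.26. With quantile normalization 55 and with equal array medians 59 were above 0, and without the array 20 h B 44 were. In 29 of the 69 the 0 h array was higher in all 3 letter pairs (14.8% of all probe sets) and in 3 it was lower in all (20.3%). Many plastid genes are transcribed together, so these members are not independent of each other. The large subunit of Rubisco, rbcL, had 347.4, 367.1 and 885.1 at 0 h and 197.5, 262.4 and 608.6 at 20 h (0.61 ± 0.14, limma adjusted p = 0.0878). Of the ATP synthase, atpF had 783.3, 737.2 and 1382.9 against 357, 372.7 and 942.5 (0.89 ± 0.23, adjusted p = 0.135). Series C was higher than A and B at both times in these genes, so the times overlap in signal while every pair rises in atpF and rbcL. In the pair-reduced fit, where 2.26% of all probe sets were called, 5 of the 69 were called, all higher, namely atpA, atpF, accD, rbcL and ndhH.

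Gene families taken by symbol gave 2 further calls. Lists and families together held 319 distinct measured genes, 2 called higher and 2 lower, to be read against 0.422% of all probe sets called. SWEET2 was called higher among 14 SWEET genes, of which 4 lay above 0. CYP71B28, a cytochrome P450, was called lower among 22 with 92.7, 62.2 and 44.1 at 0 h and 142.1, 104.4 and 90.1 at 20 h (-0.79 ± 0.12, limma adjusted p = 0.0113), with overlapping groups and each pair lower. The 47 UDP-glycosyltransferases held no call. UGT74D1 (0.73 ± 0.15, adjusted p = 0.0528) and UGT80B1 (-0.74 ± 0.16, adjusted p = 0.0691) came closest, and the family's median was -0.02, or 0.03 with equal array medians. No call was made among 20 beta-glucosidases, 15 GH9 cellulases, 14 bZIP factors, 11 tau glutathione transferases, 10 expansins A, 9 XTH genes, 9 U-box ligases named PUB, 8 aldehyde dehydrogenases, 8 ATG genes, 7 AUX/IAA genes, 6 WRKY factors, 5 bHLH factors, 3 antenna genes, 1 NAC factor or 1 heat shock protein. Among these, BGLU44 lay lower (417.9, 302.5 and 283.1 against 686.3, 581.1 and 672.9, -0.97 ± 0.30, adjusted p = 0.235), and IAA29, an auxin response repressor, lay higher (29.1, 21.7 and 40.7 against 11.1, 1.9 and 17.2, 1.81 ± 0.59, adjusted p = 0.26). Neither gene overlapped between the times, while 7.97% of all probe sets lay wholly lower and 5.68% wholly higher at 0 h. Their families did not lean with them. Of the beta-glucosidases 10 lay above and 10 below 0, and of the AUX/IAA genes 3 above and 4 below.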

How the data were processed

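The values deposited by the authors are linear signal intensities, 1 per probe set and array. The submitters' processing notes name MAS5 and its version is not given in the sources used here. Each array's mean after trimming 2% at each end was 100.01. No detection calls entered, so signal over background was not judged, and 577 values are listed at 0.

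The 64 control probe sets were left out. Intensities were analysed as log2(value + 1.1), the offset being the 10th percentile of all values, without further scaling, since array medians spanned 0.297 on the log2 scale, below a limit of 0.5. This makes the differences of dim probe sets smaller. No 2 arrays were identical. Limma 3.58.1 in R 4.3.3 was fitted to all 18 arrays with 6 time means and the replicate letter as a block (eBayes with a trend on intensity, 10 residual degrees of freedom). The letter pairs arrays because each course was grown separately. The deviations from the time means of the 0 h and 20 h arrays correlated by 0.136, 0.182 and 0.342 in series A, B and C, and by -0.108 between letters. At each time these deviations cancel over the letters. The value between letters therefore largely follows from those within letters and is no separate support for the block. The code was tested on simulated data.

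Genes come from the platform's annotation, with symbols by Entrez ID from RefSeq's TAIR10.1 table (13436 of 13513 matched). Lists count 1 probe set per gene, the brightest. Named genes are the 12 largest called differences in each direction that have 1 gene, reach the median signal at the brighter time and go one way in all letter pairs, plus list and family members. The members, lists and the alternatives that leave out arrays of series B were chosen with earlier results of these data known.

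Alternatives were no block, the 6 arrays alone, leaving out 2 or 4 arrays of series B at other times, quantile normalization, equal medians, other offsets (none, or 7.1), no dim probe sets, no trend, a minimum log2 difference of 1, and leaving out each series and array. Plastid genes were taken by RefSeq chromosome because the symbol pattern set for them matched none.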

Additional observations from a re-analysis of the deposited data

How the results depend on the processing

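The count of 96 calls moved by more than 1.5 times with no replicate block (45), from the 6 arrays of 0 h and 20 h alone (625), in the fit without 4 h B and 16 h B (515), without these and 8 h B and 12 h B (1123), without an intensity trend (43) and with a log2 difference of at least 1 (55), and it lay between 0 and 478 when a replicate or an array was left out. The minimum difference can only remove calls by its construction. The cause of the other changes was not tested. With quantile normalization, equal medians, the other offsets or no dim probe sets it lay between 91 and 123. The test of the difference between the steps, with 0 calls, gave 1 and 24 in the fits without 2 and without 4 arrays of series B, and 0 to 2 when a replicate or an array was left out. The 2 called list genes became 12 with the 6 arrays, 8 and 13 without 2 and 4 arrays of series B and 1 without the trend, and lay between 0 and 7 when a replicate or an array was left out. The block also changed the calls of 7 of the 24 named genes. Without the intensity trend 13 of the 24 were called, with COR15A, PDC2 and Fes1B among those not called. None of the 24 changed direction in any setting. They were chosen for going one way in all letter pairs, so this was largely fixed by the choice. With 3 arrays a time, a difference that missed the threshold is not shown to be absent.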
